A study of Mus musculus with 14 samples.

Results

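Nuclear-encoded genes of the mitochondrial respiratory chain were followed in single haematopoietic stem cells of mouse bone marrow. Members were taken by symbol, namely genes starting with Ndufa, Ndufb, Ndufc, Ndufs, Ndufv, Uqcr, Atp5, Cox4, Cox5, Cox6, Cox7 or Cox8 and the genes Sdha, Sdhb, Sdhc and Sdhd, leaving out symbols with -ps. This gave 95 of the 25832 genes in the count tables. They comprised 39 subunits of complex I, 4 of complex II, 8 of complex III, 19 of complex IV, 17 genes of ATP synthase and 8 assembly factors of complex I (Ndufaf genes). All 95 had at least 1 counted molecule. Ndufa4 and Ndufa4l2 were placed in complex IV, to which the Ndufa4 protein is now assigned.

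The respiratory chain passes electrons from NADH (at complex I) or succinate (at complex II) through ubiquinone, complex III and cytochrome c to oxygen at complex IV, and complexes I, III and IV pump protons across the inner mitochondrial membrane. ATP synthase uses that proton gradient to make ATP. Most subunits are encoded in the nucleus and the remainder in the mitochondrial genome, and quiescent haematopoietic stem cells are known for relying on glycolysis more than their progeny do.

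The series holds 14 samples on Phf19, a factor associated with the Polycomb repressive machinery, in control animals carrying floxed alleles (FF) and in PHF19 KO animals. Only its 4 MARS-Seq plates (350W, 351W, 352W and 353W) are used here, and the other 10 samples were not used here. MARS-Seq sorts single cells into wells and counts transcripts at their 3′ end by unique molecular identifiers (UMIs), so a level here is a number of molecules and does not scale with transcript length. The cells were lineage-depleted bone marrow cells labelled CD150+CD48-. The labels give no genotype for a plate, and the prefixes WT and KO in the cell names are the only source of it. Each plate held 96 wells of each, WT in the lower and KO in the upper well numbers, so genotype and position on the plate cannot be told apart. Some details of the model, such as whether WT cells came from the floxed controls, which Cre drove the deletion, the age of the animals and any pooling, were not given in the sources used here. No label ties a plate to its own animal. The p-values therefore describe only how these 4 plates vary, which may be technical variation.

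Cells with at least 500 UMIs were kept, 716 of 768 wells, with 220821 to 510791 UMIs per plate and genotype. Depth and losses moved with genotype. Median depth was 3077, 3806, 2920.0 and 5006 UMIs per WT cell and 2230.0, 3120.0, 2552.5 and 4483.5 UMIs per KO cell of 350W, 351W, 352W and 353W, lower in KO in each plate. Wells under 500 UMIs numbered 1, 0, 1 and 1 in WT and 4, 7, 22 and 16 in KO. Their part in the genotype values was not tested. No plate shared a well name with another and no 2 wells held identical values. Phf19 itself had 6 UMIs in all WT cells and 3 in all KO cells, too few to check the genotype labels, and which part of the gene was deleted is not given in the sources used here. Summed stem cell markers (12 of 12 genes detected, among them Hlf, Mecom and Kit) lay between 1039.6 and 1799 CPM in the 8 sums. Some single genes of this list differed more between plates. Gata2 was at 292 CPM in WT cells of 350W and at 22.0 CPM in WT cells of 352W. Meis1 was highest in 352W, at 343 CPM in WT and 353 CPM in KO cells. Slamf1, which encodes CD150, was listed at 0 in WT cells of 352W and in both genotypes of 353W and reached 40.6 CPM at most. Markers of other blood cells differed between plates, and their values stand beside the plate results.

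Promoters are shown first, as sequence that the choice by symbol did not use. RefSeq windows (GRCm38.p6, 300 bases around an annotated start) were at hand for 75 members, 80 windows in all, and 4 motifs were searched on both strands. The motifs were ACTTCCGG of ETS factors such as GABP, GCGCATGC of NRF1, AAGATGGC of YY1 and CCAAT of NFY; GABP, NRF1 and YY1 are textbook regulators of respiratory genes. GCGCATGC overlaps its own reverse complement, so 1 longer stretch can count as 2 matches. NRF1 letters were in 12 member windows (15%) against 2.71% of all 32851 windows and 3.52% of the 21263 windows of protein-coding genes. YY1 letters were in 11 member windows (13.75%), against 2.75% of all and 3.05% of protein-coding windows. The ETS letters were in 5 (6.25%), against 3.89% and 5.15%, and CCAAT in 35 (43.75%), against 37.4% and 38.2%. At least 1 of the first 3 motifs was in 27 member windows (33.75%), against 8.83% and 10.99%. Member windows held a median of 20 CG pairs, windows of protein-coding genes 13 and all windows 7, and no window set matched for CG was compared. By complex, the 3 motifs together were in 11 of 34 windows of complex I, 1 of 3 of complex II, 3 of 5 of complex III, 2 of 13 of complex IV and 7 of 18 of ATP synthase. A match describes letters only and says nothing of binding in these cells.

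Windows of 6 genes are printed 5′ to 3′ on the strand of the gene, with every match to the 4 motifs in capitals. Sdhb, the complex II gene of lowest p-value between genotypes, has an NRF1 match and a CCAAT box and lies at chr4:140961021-140961320 (plus strand). Cox6a1, the complex IV gene of highest level, has 2 overlapping NRF1 matches and a CCAAT box at chr5:115348909-115349208 (minus strand). Uqcrh, the highest complex III gene, has an ETS match and a CCAAT box at chr4:116075021-116075320 (minus strand). Ndufaf8, the highest assembly factor, has a YY1 match and 4 CCAAT boxes at chr11:120098684-120098983 (plus strand). Cox6b1 at chr7:30626065-30626364 (minus strand) and Cox6b2 at chr7:4753045-4753344 (minus strand) encode alternative forms of 1 subunit that were highest in different plates, and each window has 3 CCAAT boxes and none of the other motifs.
Sdhb: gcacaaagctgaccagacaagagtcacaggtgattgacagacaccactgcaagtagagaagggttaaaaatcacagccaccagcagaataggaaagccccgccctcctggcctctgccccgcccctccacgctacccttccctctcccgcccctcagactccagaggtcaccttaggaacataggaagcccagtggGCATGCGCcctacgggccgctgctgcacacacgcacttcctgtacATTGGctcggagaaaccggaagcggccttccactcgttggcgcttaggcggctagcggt
Cox6a1: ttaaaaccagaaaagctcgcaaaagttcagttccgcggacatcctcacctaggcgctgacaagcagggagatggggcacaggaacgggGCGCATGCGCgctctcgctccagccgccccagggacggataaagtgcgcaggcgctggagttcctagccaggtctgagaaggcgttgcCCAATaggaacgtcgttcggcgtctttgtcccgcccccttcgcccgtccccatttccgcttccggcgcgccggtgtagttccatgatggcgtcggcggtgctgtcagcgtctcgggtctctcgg
Uqcrh: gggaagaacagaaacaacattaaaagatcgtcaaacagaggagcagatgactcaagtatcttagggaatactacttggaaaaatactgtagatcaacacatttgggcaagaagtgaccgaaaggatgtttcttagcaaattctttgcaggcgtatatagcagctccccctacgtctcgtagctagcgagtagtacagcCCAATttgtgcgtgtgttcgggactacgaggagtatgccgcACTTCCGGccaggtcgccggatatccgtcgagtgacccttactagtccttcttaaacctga
Ndufaf8: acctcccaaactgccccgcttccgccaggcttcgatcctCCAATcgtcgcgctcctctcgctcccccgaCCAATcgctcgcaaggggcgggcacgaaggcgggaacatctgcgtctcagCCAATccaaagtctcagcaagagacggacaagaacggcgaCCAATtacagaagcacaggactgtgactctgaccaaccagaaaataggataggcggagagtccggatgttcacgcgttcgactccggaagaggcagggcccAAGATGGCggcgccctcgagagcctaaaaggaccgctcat
Cox6b1: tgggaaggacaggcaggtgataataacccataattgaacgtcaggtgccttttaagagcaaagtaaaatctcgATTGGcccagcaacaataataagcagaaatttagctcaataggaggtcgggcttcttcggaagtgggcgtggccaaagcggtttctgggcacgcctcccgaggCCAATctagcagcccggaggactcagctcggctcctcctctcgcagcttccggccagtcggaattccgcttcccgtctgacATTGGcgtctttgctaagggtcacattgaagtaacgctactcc
Cox6b2: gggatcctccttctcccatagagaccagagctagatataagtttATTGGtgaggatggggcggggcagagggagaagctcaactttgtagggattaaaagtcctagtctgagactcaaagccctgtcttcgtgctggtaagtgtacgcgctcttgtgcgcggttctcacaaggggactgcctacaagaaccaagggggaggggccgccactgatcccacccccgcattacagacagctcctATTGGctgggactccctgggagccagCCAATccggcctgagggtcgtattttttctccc

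Respiratory chain transcripts made up 42949 of 2671945 UMIs, or 1.61%. Their summed level, as UMIs of the gene per 1000000 UMIs of that plate and genotype (CPM), was 13120.2, 15818, 17004 and 17567 CPM in WT cells and 13351, 16042, 16058 and 17596 CPM in KO cells. Values stand in the order 350W, 351W, 352W, 353W here and below. The 4 plates span a ratio of 1.33 between highest and lowest, and the genotypes of a plate lie close together. The mean was 15877 ± 1977 CPM in WT and 15762 ± 1765 CPM in KO cells (SD, n = 4 plates), and the log2 ratio of KO to WT averaged -0.01 ± 0.05 (SD, n = 4 plates), a ratio of 0.994. Any difference between genotypes in the whole group was therefore smaller than the spread between plates.

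Complex I held the largest part of these transcripts, 35.6% to 47.2% of member UMIs over the 8 sums. ATP synthase held 24.1% to 29.8%, complex IV 17.4% to 23.9%, complex III 5.07% to 7.16%, complex II 2.18% to 3.75% and the assembly factors 1.28% to 1.76%. The numbers of genes differ between these groups, so the shares are of molecules and not of protein complexes. This order was the same in all 8 sums. The share of complex I was highest in both genotypes of plate 352W, at 46.5% in WT and 47.2% in KO cells, and lowest in plate 353W, at 35.6% and 36.1%.

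**Figure D1:**
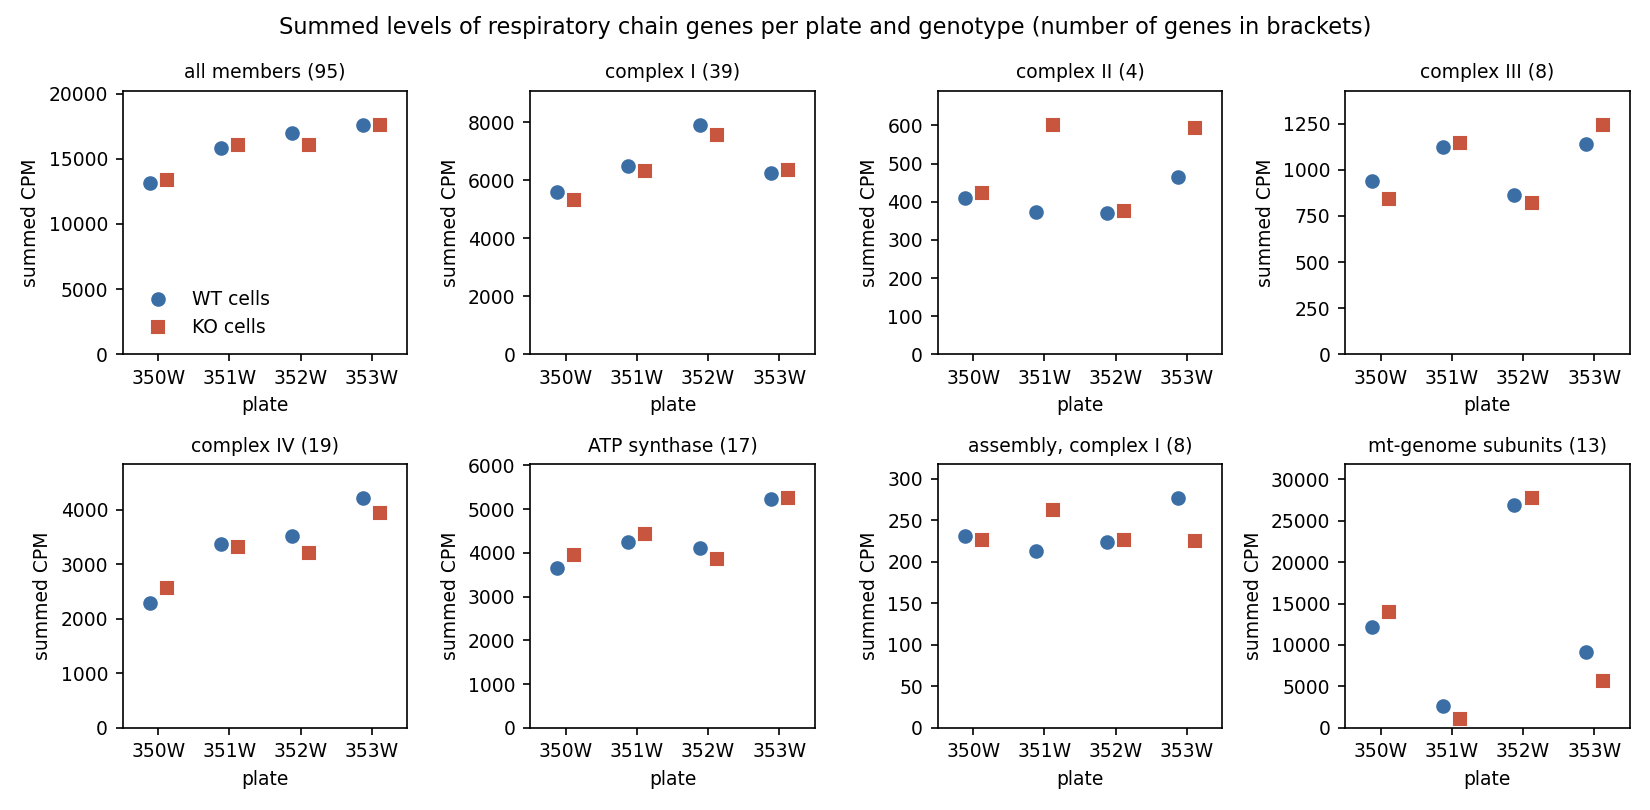
Summed level in CPM (y axis, from 0) of all members, of each complex and of the 13 subunits encoded by the mitochondrial genome (mt-genome), by plate (x axis), with a circle for WT and a square for KO cells. The 2 genotypes of a plate lie near each other in the nuclear groups other than complex II and the assembly factors, while the mitochondrial-genome subunits range from 1056 to 27692 CPM between plates.

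The comparison of genotypes asked whether single respiratory genes differed between KO and WT cells. No member did at the threshold used, an adjusted p below 0.05 in edgeR's quasi-likelihood test with the plate as a block. Of all 6541 genes with counts high enough to test, 6 were called (0.0917%), 2 of them higher (0.0306%) and 4 lower (0.0612%) in KO, and 79 of the 95 members were tested with 0 called. The lowest adjusted p of a member was 0.721. In simulated counts the same fit recovered 22% of genes changed 1.5-fold and 40% of those changed 2-fold, so 0 calls do not show equal levels. At an unadjusted p below 0.05 edgeR had 8 of 79 members, 5 higher and 3 lower in KO, beside 398 of all genes (6.08%), with 3% of all genes higher and 3.09% lower. Without the block there was 1 such member beside 86 genes (1.31%), and DESeq2 gave 0 members beside 63 genes (0.963%). After adjustment DESeq2 called 1 gene (0.0153%), no member. The median log2 fold change of the 79 was -0.003, beside -0.004 over all genes, with 39 above 0 and 40 below. Their fold changes ran from -0.65 to 0.81 on the log2 scale with a median SE of 0.18, against 0.28 over all genes. KO was above WT in all 4 plates for 7 members, beside 7.83% of all genes, and below in all 4 for 7, beside 7.75%.

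**Figure D2:**
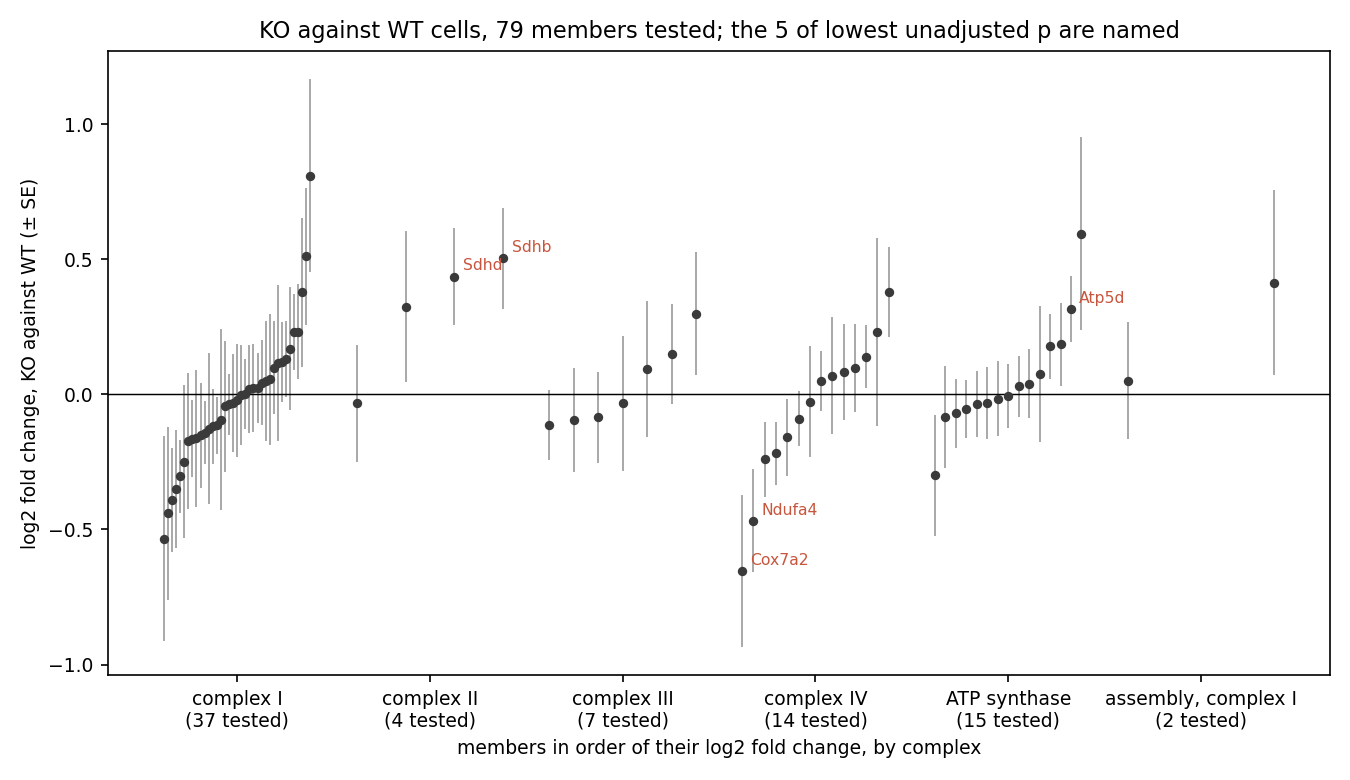
Fitted log2 fold change of KO against WT cells (y axis) with its SE as a bar (too small for Cox6b2 and Ndufa10) for each of the 79 members tested, ordered within each complex (x axis). The points of every complex lie on both sides of 0 except the 2 assembly factors, and the 5 members of lowest unadjusted p are named.

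Complex II, succinate dehydrogenase, which also works in the citrate cycle, had the largest mean log2 ratio between genotypes of the 6 groups. It counted 410.4, 373, 371 and 466 CPM in WT cells and 424, 601, 376 and 594 CPM in KO cells. KO was the higher in each plate, by little in 350W and 352W. The log2 ratio averaged 0.28 ± 0.31 (SD, n = 4 plates), and without plate 351W it averaged 0.14. Sdhb, the iron-sulfur subunit, had 112, 107, 94.4 and 95.9 CPM in WT cells and 131, 166, 127 and 149 CPM in KO cells. All KO values lie above all WT values. Its log2 fold change was 0.50 (SE 0.19), with an unadjusted p of 0.0149 and an adjusted p of 0.721 in edgeR. With counts thinned to the lowest total of the 8 sums it was 0.29. Sdhd, a membrane anchor with the ubiquinone site, had 112, 96.4, 123 and 153 CPM in WT cells and 139.8, 176, 158 and 178 CPM in KO cells. KO was above WT within each plate, but the genotypes overlap across plates, since WT cells of 353W exceeded KO cells of 350W. Its log2 fold change was 0.44 (SE 0.18; edgeR adjusted p = 0.738). The catalytic flavoprotein Sdha had 38.5, 55.8, 72.4 and 97.9 CPM in WT cells and 54.1, 112, 36.2 and 126 CPM in KO cells. Its fold change was 0.32 (SE 0.28) on the log2 scale and KO was lower in plate 352W. The other anchor, Sdhc, had a log2 fold change of -0.03 (SE 0.21).

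Complex I, NADH dehydrogenase, counted 5601, 6483, 7910.1 and 6253 CPM in WT cells and 5331, 6305, 7572 and 6359 CPM in KO cells. Its log2 KO to WT ratio was -0.04 ± 0.04 (SD, n = 4 plates), and 17 of its 37 tested genes had a fold change above 0 and 20 below. Ndufa13, an accessory subunit also known as GRIM-19, was the highest member of all and had 305, 462, 1558 and 307 CPM in WT cells and 329, 579, 1309 and 251 CPM in KO cells. Plate 352W stood far above the others in both genotypes, and the fold change between genotypes was -0.04 (SE 0.11). Ndufa2, an accessory subunit of the matrix arm, had 327, 289, 743 and 681 CPM in WT cells and 235, 211, 743 and 732 CPM in KO cells. Both sums of 352W and of 353W lay above those of the other plates (log2 fold change -0.14, SE 0.12). Ndufa6, an accessory subunit of the LYR family, had 484, 383, 500.5 and 431 CPM in WT cells and 401, 384, 462 and 403 CPM in KO cells, one of the most even genes of the set. Ndufc2, a small membrane-arm subunit, averaged 306 ± 56.4 CPM in WT and 291 ± 115 CPM in KO cells (SD, n = 4 plates). Of the core subunits of the matrix arm, Ndufs7 averaged 164 CPM, Ndufs8 107 and Ndufv1 42.4 over the 8 sums. Ndufa9 (log2 fold change 0.81, SE 0.36) and Ndufv3 (-0.30, SE 0.13) were the 2 complex I genes with an unadjusted p below 0.05 in edgeR, and neither passed after adjustment.

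Complex III, which hands electrons from ubiquinol to cytochrome c, counted 939, 1124, 862 and 1137 CPM in WT cells and 839, 1142, 819.7 and 1242 CPM in KO cells. The log2 ratio was -0.02 ± 0.13 (SD, n = 4 plates), with KO higher in 2 plates and lower in 2. Uqcrh, the hinge subunit, led with 250.1, 462, 145 and 329 CPM in WT cells and 212, 384, 127 and 364 CPM in KO cells. It was highest in 351W and lowest in 352W in both genotypes. Uqcrq and Uqcr11, small subunits, averaged 163 and 141 CPM, and Uqcr10 averaged 138 CPM. The catalytic Rieske iron-sulfur protein Uqcrfs1 averaged 114 CPM and the core proteins Uqcrc2 and Uqcrc1 85.0 and 71.2 CPM. No complex III gene had an unadjusted p below 0.05 among the 7 tested in edgeR.

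Complex IV, cytochrome c oxidase, counted 2286, 3372, 3516 and 4203 CPM in WT cells and 2571, 3307, 3202 and 3931 CPM in KO cells. KO was higher in 350W and lower in the other 3 plates, with a log2 ratio of -0.02 ± 0.14 (SD, n = 4 plates). Its highest genes were Cox6a1 with 362, 325, 831 and 517 CPM in WT cells and 374, 319.9, 711 and 476 CPM in KO cells and Cox4i1, the largest nuclear subunit, with 420.0, 535, 308 and 534 CPM in WT cells and 519, 544, 263 and 549 CPM in KO cells. Cox6a1 was highest in 352W and Cox4i1 lowest there, in both genotypes. Cox6b1 and Cox8a averaged 367 and 341 CPM. Ndufa4 had 70.5, 104, 167 and 284 CPM in WT cells and 31.6, 64.0, 149 and 217 CPM in KO cells. KO was lower within each plate, while plates differed more than genotypes did. Its log2 fold change was -0.47 (SE 0.19), with an adjusted p of 0.734 in edgeR. Cox7a2 had 54.5, 91.3, 104 and 97.9 CPM in WT cells and 76.7, 41.6, 63.4 and 47.1 CPM in KO cells. KO was lower in 3 plates and higher in 350W (log2 fold change -0.65, SE 0.28; edgeR adjusted p = 0.746). Cox5b, with 0.38 (SE 0.17), was the third gene of this complex under an unadjusted p of 0.05 in edgeR.

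ATP synthase counted 3652, 4253, 4120.3 and 5231 CPM in WT cells and 3960.2, 4424, 3863 and 5244 CPM in KO cells. The log2 ratio was 0.02 ± 0.09 (SD, n = 4 plates). Atp5e, the epsilon subunit of the central stalk, was highest with 529, 469, 441 and 668 CPM in WT cells and 599.9, 399.8, 376 and 813 CPM in KO cells. A single well held 31 of its 1483 UMIs. Its fold change was 0.03 (SE 0.11), and the sign differed between plates. Atp5g3, a gene for the rotating c ring, averaged 479 ± 71.6 CPM in WT and 465 ± 113 CPM in KO cells, and the catalytic beta subunit Atp5b 466 ± 173 and 466 ± 188 CPM (SD, n = 4 plates). Atp5j, coupling factor F6, averaged 454 CPM. Its RefSeq span overlaps that of Gabpa, a subunit of GABP, and whether the counting used strand is not given in the sources used here. Atp5d, the delta subunit of the stalk, had 224, 264, 239 and 360.2 CPM in WT cells and 275, 329, 344 and 408 CPM in KO cells. KO was above WT in each plate while the groups overlap across plates. Its log2 fold change was 0.32 (SE 0.12), with an unadjusted p of 0.0182 and an adjusted p of 0.721 in edgeR; its span overlaps that of Cbarp.

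The assembly factors of complex I, which help build it without staying in it, were low. Ndufaf8 had 70.5, 88.8, 107 and 76.4 CPM in WT cells and 72.2, 102, 99.6 and 78.5 CPM in KO cells, and Ndufaf2 had 77.0, 17.8, 37.8 and 43.1 CPM in WT cells and 49.6, 48.0, 40.8 and 75.9 CPM in KO cells. These were the 2 of 8 tested, with log2 fold changes of 0.05 (SE 0.22) and 0.41 (SE 0.34). Ndufaf4 averaged 29.6 and Ndufaf3 17.5 CPM. Summed, the 8 factors counted 231, 213, 223 and 276 CPM in WT cells and 226, 262, 226 and 225 CPM in KO cells, and KO was higher in 2 plates.

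Several subunits of complex IV and the c ring of ATP synthase exist in alternative forms encoded by separate genes. Cox4i1 had 97.5% of the UMIs of its pair, against 2.47% for Cox4i2, the form known from lung and low oxygen. Cox6a1 had 99.6%, and Cox6a2, a form of heart and skeletal muscle, 5 UMIs in all. Cox7b had 96.2%, against 3.82% for Cox7b2. Among Cox7a genes, Cox7a2l (a factor of supercomplex assembly) had 70.6%, Cox7a2 27.7% and the muscle form Cox7a1 1.68%, or 12 UMIs. Ndufa4 had 99.3% against 3 UMIs for Ndufa4l2, and Cox8a was the one Cox8 gene in the tables. The c ring genes divided into 79.8% Atp5g3, 13.9% Atp5g1 and 6.23% Atp5g2. In the Cox6b pair, Cox6b1 had 62.0% and Cox6b2, known as the testis form, 38.02%.

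That share of Cox6b2 came from 1 plate. It had 86.6, 43.1, 44.1 and 576 CPM in WT cells and 76.7, 70.4, 54.3 and 559.8 CPM in KO cells. Both sums of 353W are at 559.8 CPM or above and the highest of the other 6 is 86.6 CPM. At least 1 Cox6b2 UMI was found in 89.5% of WT and 85.0% of KO cells of 353W, against 13.5% to 19.1% of cells in the other sums, with no more than 11 UMIs in any well. Median depth was higher in 353W (5006 and 4484 UMIs per cell) than elsewhere (2230 to 3806), and its part in the Cox6b2 values was not tested. Cox6b1 had 208, 659.7, 229.8 and 299.5 CPM in WT cells and 221, 717, 303 and 301 CPM in KO cells. It was highest in 351W in both genotypes, and in 353W, where Cox6b2 was high, its level lay among those of the other plates.

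**Figure D3:**
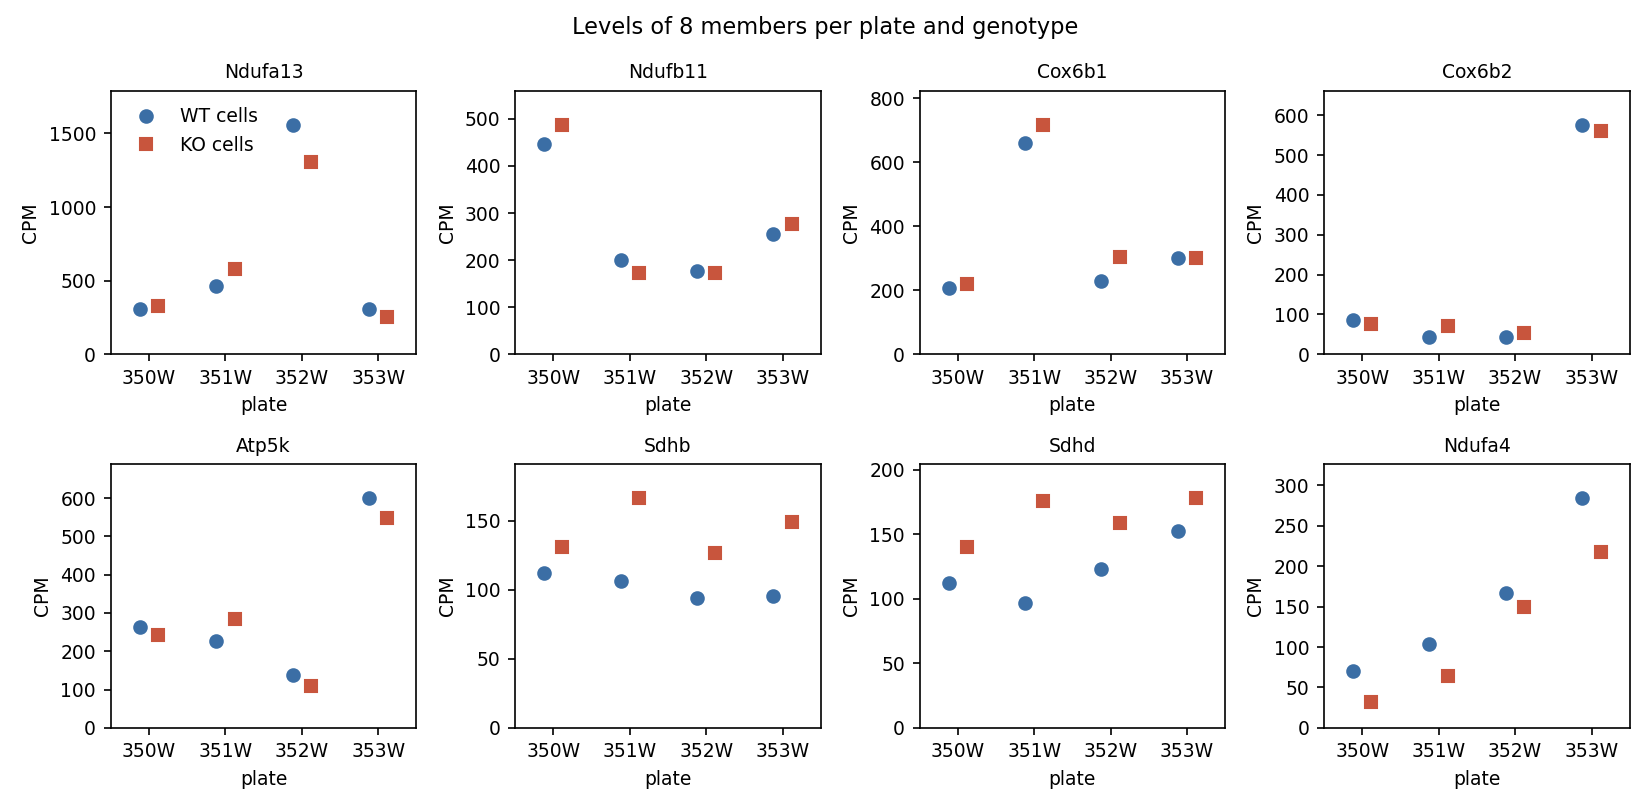
Level in CPM (y axis, from 0) of 8 members by plate (x axis), with a circle for WT and a square for KO cells. Cox6b2 and Atp5k are high in both genotypes of 353W, Ndufa13 in 352W, Cox6b1 in 351W and Ndufb11 in 350W. Sdhb and Sdhd differ less between plates than these and have KO above WT in each.

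The plates were then set side by side for single members. Among the 73 tested members with a mean of 50 CPM or more, the median ratio of the highest to the lowest plate was 1.87, against 1.82 over all 4151 such genes, and 29 reached 2-fold, beside 40.9% of all genes. The median absolute log2 ratio of KO to WT within a plate was 0.26, and the median SD over plates in WT cells was 0.43. A difference between genotypes and an SD over plates are unlike measures, so these values do not rank genotype against plate. Sdhb, Sdhd and Cox7a2 had log2 fold changes between genotypes of 0.50, 0.44 and -0.65 and plate ratios of 1.23, 1.31 and 1.28. The plate ratio is taken on the mean of WT and KO in a plate, so opposite moves of the genotypes cancel in it. Cox7a2 ranged from 54.5 to 104 CPM in WT and from 41.6 to 76.7 CPM in KO cells. Sdhd ranged from 96.4 to 153 CPM in WT cells. The largest ratios were 11.5 for Cox6b2, 5.13 for Ndufa13 and 4.91 for Ndufa4. The smallest were 1.23 for Sdhb, 1.25 for Ndufa6 and 1.28 for Cox7a2. Ndufa13 had a UMI in 98.9% of WT and 97.3% of KO cells of 352W, against 39.1% to 82.3% in the other sums; its RefSeq span overlaps that of Tssk6.

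One plate had both its sums above the 6 others for 34 of the 73 members (46.6%), beside 42.7% of all genes. For 12 of them that plate was 353W, for 10 it was 351W, for 9 it was 352W and for 3 it was 350W. One plate lay below the others for 30 members, beside 35.3% of all genes; this was 350W for 13, 352W for 12 and 351W for 5, and never 353W. Examples above the others are Atp5k of ATP synthase, with 263, 226, 138 and 599 CPM in WT cells and 244, 285, 109 and 547 CPM in KO cells, and Ndufs3, a core subunit of complex I, with 35.3, 183, 28.3 and 45.0 CPM in WT cells and 40.6, 122, 36.2 and 86.3 CPM in KO cells. Atp5k was highest in 353W and Ndufs3 in 351W. Across the 73 members, deviations of WT cells from their mean over plates correlated with those of KO cells of the same plate (r = 0.47, 0.71, 0.66 and 0.82), against -0.45 to 0.08 for different plates. The same-plate values over all 4151 genes were 0.65, 0.76, 0.71 and 0.71. The genotypes of a plate share its library preparation, and deviations sum to 0 over the plates, so these values are descriptions.

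**Figure D4:**
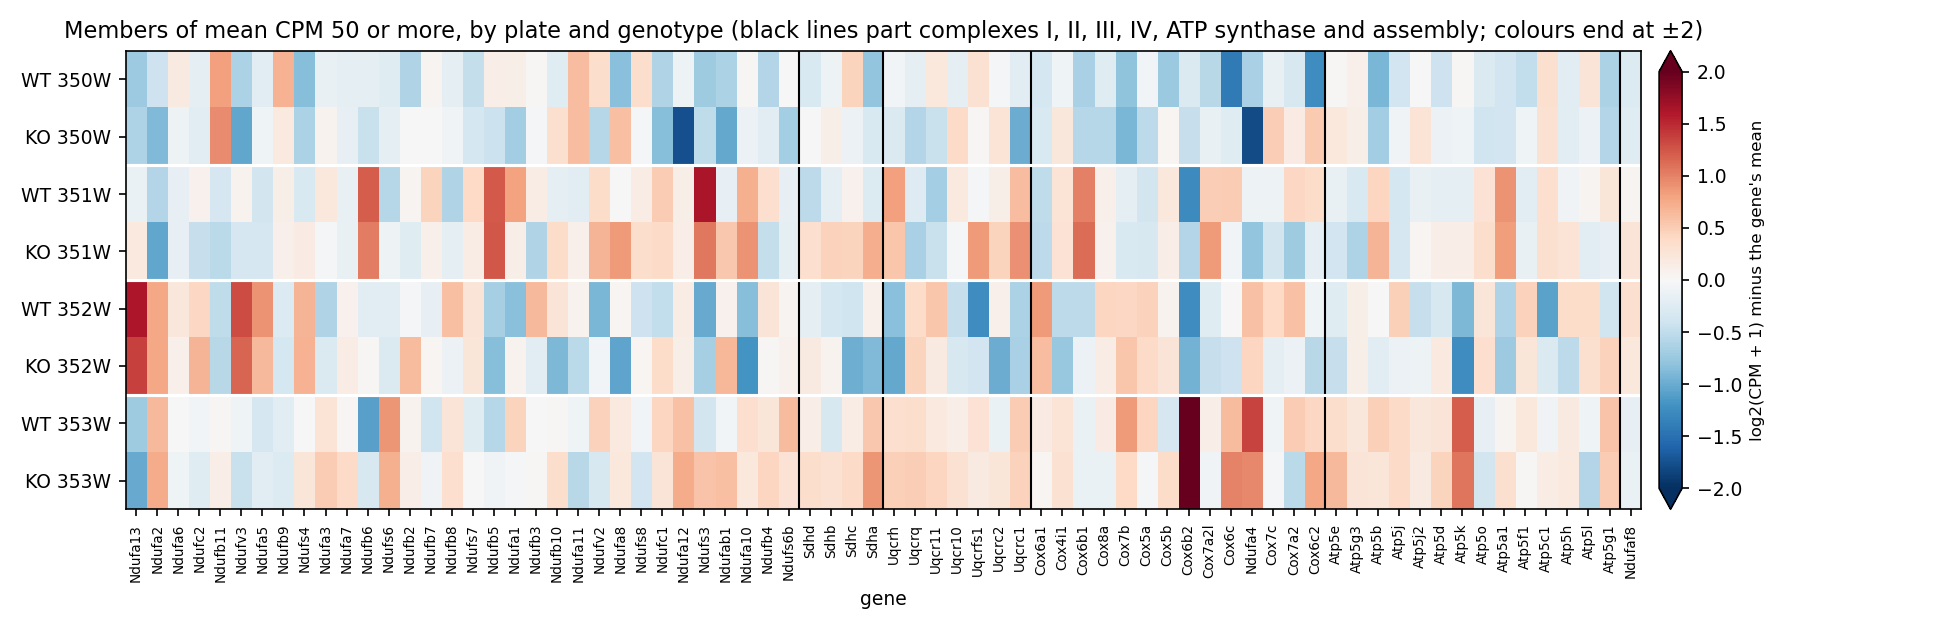
log2(CPM + 1) minus the mean of the gene over the 8 sums (colour, ending at ±2) for members of mean 50 CPM or more (columns, by complex and then by level) in each plate and genotype (rows). The 2 rows of a plate look alike for many genes, most visibly Cox6b2 in 353W, Ndufa13 in 352W and Ndufs3 in 351W.

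Markers of cell state moved with the plates too. Summed over 8 lymphoid and B cell markers (8 of 8 detected), the level was 77.0, 145, 7655 and 2212 CPM in WT cells and 81.2, 147, 5384 and 1133 CPM in KO cells. Ighm made up most of it in 352W and in WT cells of 353W and was listed at 0 in 351W and in KO cells of 350W, while Cd79a was at 0 in 350W and 351W. Elsewhere Cd79a was at or under 9.44 CPM and Pax5 was at or under 12.6 CPM in every sum. Flt3, a receptor known from multipotent progenitors, had 0, 30.4, 368 and 170.3 CPM in WT cells and 18.04, 6.40, 367 and 154 CPM in KO cells. Dntt, an enzyme of early lymphoid progenitors, had 9.62, 12.7, 88.1 and 421 CPM in WT cells and 27.1, 16.0, 190.2 and 429 CPM in KO cells. Flt3 and Dntt were higher in 352W and 353W than in the other plates in each genotype. Others of the list were not: Cd79b was highest in 351W, at 66.0 CPM in WT and 83.2 CPM in KO cells. Ebf1 did not part 352W and 353W from the other plates. The 6 cycling markers, all detected, counted 228, 365, 677 and 1055 CPM in WT cells and 239, 345, 575 and 1086 CPM in KO cells. Top2a, Cdk1, Mcm5 and Ccnb1 were highest in 353W in both genotypes. Among WT cells Mki67 was highest in 351W, at 96.4 CPM, and Pcna in 352W, at 277 CPM. Among KO cells Mki67 and Pcna were highest in 353W. Summed, the 6 megakaryocyte markers were high in 350W, with 725 and 613 CPM, against 47.2 to 170 CPM in the others. Most of this was Vwf, at 532 CPM in WT and 478 CPM in KO cells of 350W. Pf4 and Gp9 were also highest in both genotypes of 350W, whereas Itga2b was highest in KO cells of 353W, at 62.8 CPM. The 7 neutrophil markers in the tables counted 182 to 244 CPM in 350W and 351W and 513 to 617 CPM in 352W and 353W. Prtn3 made up most of this in 350W and 351W and lay at 182 to 285 CPM in every sum. Mpo was listed at 0 in 350W and 351W and lay at 158 to 205 CPM in 352W and 353W. Elane was counted in WT cells of 352W only, and Cebpe and S100a9 were at or under 9.06 CPM in every sum. The part of these markers in the plate values of the respiratory genes was not tested. Between genotypes, the summed level of the 5 monocyte markers was lower in KO cells in all 4 plates (mean log2 ratio -0.43 ± 0.24, SD, n = 4 plates). Cd74 and H2-Aa made up most of that sum and were lower in KO in each plate. Ly86, of the same list, was higher in KO in 350W, 351W and 352W, and Csf1r and Irf8 changed sign between plates. Ighm was the 1 lymphoid gene called, lower in KO. The part of these markers in the genotype values was not tested.

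The 13 subunits encoded by the mitochondrial genome, which join the nuclear ones in complexes I, III, IV and ATP synthase, did not share the steadiness of the nuclear total. They counted 12184, 2593, 26922 and 9099.6 CPM in WT cells and 14023, 1056, 27692 and 5705 CPM in KO cells. Plate means spanned a ratio of 15.0 between 352W and 351W, against 1.33 for the nuclear members. KO was higher in 350W and 352W (log2 ratios 0.20 and 0.04) and lower in 351W and 353W (-1.30 and -0.67). Of the 11 tested, all had a log2 fold change below 0 (median -0.30), beside 3315 of all 6541 genes, and 0 were called. Those with the highest levels were mt-Cytb with 2357, 388, 4684 and 1552 CPM in WT cells and 2796, 106, 4406 and 1041 CPM in KO cells, then mt-Co1 and mt-Nd4 with means of 2053 and 1770 CPM. RNA of the mitochondrial genome is often read as a sign of cell quality in single-cell libraries, and its part in the nuclear values was not tested.

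Genes that work beside the chain gave no calls between genotypes either. Among electron carriers and exchangers 0 of 6 tested were called; Slc25a3, the phosphate carrier, Slc25a5, an ADP/ATP carrier, and Etfb, of the electron transfer flavoprotein, averaged 462, 377 and 239 CPM. Slc25a5 was lower in KO in each plate (log2 fold change -0.24, SE 0.11; edgeR adjusted p = 0.800). Assembly factors beyond the Ndufaf genes had 0 of 16 called, with Cox17, Cox14 and Cox16 at 211, 187 and 138 CPM, and their summed level was lower in KO in all 4 plates (mean log2 ratio -0.08 ± 0.05, SD, n = 4 plates). Of the 16 single genes, 8 had a log2 fold change above 0 and 8 below. KO was above WT in all 4 plates for 3 of them and below for 0, beside 7.83% and 7.75% of all genes. Regulators had 0 of 6 called; the coactivators Ppargc1a and Pprc1 averaged 62.5 and 54.1 CPM and Yy1 60.4 CPM. In the citrate cycle 0 of 14 were called, with Mdh2, Idh2 and Idh3g at 129, 125 and 116 CPM. In glycolysis 0 of 11 were called, with Ldha, Aldoa and Pkm at 226, 208 and 195 CPM, and its summed level was below WT in KO cells of all 4 plates (mean log2 ratio -0.11 ± 0.08, SD, n = 4 plates). Of the 11 single genes, 4 had a log2 fold change above 0 and 7 below (median -0.04), and 0 were lower in KO in all 4 plates. Cytosolic ribosomal protein genes, summed, were higher in KO in all 4 plates (mean log2 ratio 0.07 ± 0.04, SD, n = 4 plates). Antioxidant genes had 0 of 11 called, led by Gpx1, Sod1 and Txn1 at 1192, 868 and 505 CPM. Sod2, the mitochondrial superoxide dismutase, had 183, 122, 305 and 82.2 CPM in WT cells and 72.2, 76.8, 299 and 31.4 CPM in KO cells. KO was lower in each plate, by little in 352W, with a log2 fold change of -0.68 (SE 0.22) and an adjusted p of 0.647 in edgeR.

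By the ratio of variance to mean, member transcripts varied less between single cells than those of the mitochondrial genome. The difference was small in KO cells of 351W (1.24 against 1.36) and in WT cells of 352W (2.14 against 2.44). After thinning each cell to 1500 UMIs, which left out 33 of 716 cells, a cell held 7 to 48 member UMIs, with means of 19.0 to 26.2 over the 8 plate and genotype groups. The variance between cells divided by the mean, which is 1 for pure counting error, had a median of 1.76 over the groups (1.24 to 2.22). It was 1.38 for complex I, 1.48 for complex II, 1.55 for complex III, 1.43 for complex IV and 1.41 for ATP synthase, against 2.82 for mitochondrial-genome subunits and 1.96 for cytosolic ribosomal protein genes. The ratio can grow with the number of molecules counted, and the mitochondrial-genome subunits had means of 1.64 to 42.8 UMIs per cell. Complex II was seen in 33.0% to 52.6% of thinned cells and complex I in 98.8% to 100% of them. A cell without a complex II UMI is not a cell without the complex at this depth.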

How the data were processed

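The authors deposited 1 table of raw UMI counts per gene and well for each of 4 MARS-Seq plates, without normalization. The submitters' processing notes name the build GRCm38.p4 and FastQC. An aligner, annotation and strand setting were not given in the sources used here. Of 25832 gene identifiers 25714 were paired with a symbol. Wells under 500 UMIs were left out, no doublets were called, and counts were summed per plate and genotype prefix, giving 8 sums of 220821 to 510791 UMIs. CPM are these sums scaled to 1000000.

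The sums were fitted for all genes with edgeR 4.0.16 (filterByExpr, TMM, quasi-likelihood, plate as block) in R 4.3.3, with Benjamini-Hochberg adjustment over 6541 genes and a threshold of 0.05. The genotypes of a plate share its table and preparation. Their deviations over all genes correlated at 0.652 to 0.756 within plates. An earlier analysis of these data had run the fit with and without the block, with 6 and 0 genes called, so the block was chosen with both counts known. An SE is the log2 fold change over the square root of F, and is too small where edgeR bounds p by a Poisson test, as for Cox6b2 and Ndufa10, for which the text gives none. Alternatives were DESeq2 1.42.0, no block, other cell and gene filters, other scalings and each plate left out. The fit was tested on simulated counts, with 50 genes changed at each size and a spread between sums that was set beforehand. It recovered 22% of genes changed 1.5-fold, 40% at 2-fold, 80% at 4-fold and 82% at 8-fold. Small changes would often be missed, so a member not called may still differ. Other steps used Python 3.11.15.

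The members, gene lists and tests were chosen with earlier results of these data known. Genes named are the 4 highest of each complex, the 5 of lowest p, alternative forms, the 3 largest and 3 smallest plate ratios and the 3 highest of each other list. Ndufb11, Ndufs3, Ndufs7, Ndufs8, Ndufv1, Uqcrfs1, Uqcrc1, Uqcrc2, Atp5k, Cox5b, Ndufa9, Ndufa10, Ndufv3, Slc25a5, Sod2, single marker genes and genes named for overlap were added after their values were seen. Protein sequences and the H3K27me3 regions were not used here. A member enters counts and sums but is not reported here singly. RefSeq types the members Cox6c2, Ndufa11b and Ndufs6b as pseudogenes, and 31 of 95 members overlap another gene's span. Reads of near-identical copies may be divided between genes.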

Additional observations from a re-analysis of the deposited data

Results flagged for a closer look

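Among 88 groups of 4 plates examined (a gene or summed list in 1 genotype), 9 had 1 plate standing far from the other 3, measured by its gap to the nearest plate over the whole range; chance gives this in about 1 in 20 groups. Some of these genes were named for their large plate ratios, among them Cox6b2, Ndufa13 and Ndufa4, so the number found is not to be read against that rate. High plates were 353W for Cox6b2, at 576 CPM in WT and 559.8 CPM in KO cells (next highest 86.6 and 76.7 CPM), 352W for Ndufa13 in WT cells, at 1558 CPM (next 462), 351W for Cox6b1 in KO cells, at 717 CPM (next 303), and 352W for Ndufc2 in KO cells, at 462 CPM (next 248). The summed assembly factors of complex I in KO cells were at 262 CPM in 351W (next 226). Cox4i1 in KO cells was low in 352W, at 263 CPM (next lowest 519). Of the least counted genes, Cox7a1 in KO cells was at 7.85 CPM in 353W and Ndufa4l2 in WT cells at 3.15 CPM in 352W, with the 3 other plates listed at 0 in each case. These genes had 12 and 3 UMIs in all kept cells. A gene counted in 1 plate only is always flagged by this measure, even for a single UMI.

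Wells under 500 UMIs, which entered no comparison, also held member transcripts. The 52 wells had 329 member UMIs of 16463, a share of 2.00% (exact 95% Clopper-Pearson interval 1.79% to 2.22%, counting error only), against 1.61% in the kept wells. Most of these wells were KO wells (4, 7, 22 and 16 in the 4 plates, against 1, 0, 1 and 1 WT wells), while the kept wells were of both genotypes, and the difference was not tested.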

How the results depend on the processing

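No member was called under any of the 12 other settings of the fit. The count of genes called over all genes depended on the setting. It was 0 with no replicate block (6 with the genotypes paired by plate), 26 with no gene filter, 1 with DESeq2, 3 with no minimum of UMIs per cell and 2 without the 8 wells of over 100 immunoglobulin UMIs. Leaving out a plate gave 2 (without 353W) to 12 (without 352W). The median log2 fold change of members was -0.0339 to 0.0694 with a plate left out, the latter without 352W. The summed log2 ratios kept within 1 SD of the reported value under all 65 alternatives. Where a plate was left out this could not fail, since that always moves the mean by less than the SD over the plates. The measure therefore bears only on the alternatives that kept every plate. With a plate left out complex II ranged from 0.14 to 0.36. Of 108 alternatives for named genes, 104 kept the sign. With a plate left out Atp5e ranged from -0.0823 to 0.119, below 0 without 350W or 353W, and Ndufa13 from -0.163 to 0.0744, above 0 without 352W or 353W. Over all settings Sdhb ranged from 0.29 to 0.59, Sdhd from 0.30 to 0.54, Atp5d from 0.27 to 0.40, Ndufa4 from -0.57 to -0.39 and Cox7a2 from -0.96 to -0.48. The causes were not tested. Depth limits the low members, since those left untested averaged 34.5 CPM (Atp5mpl) or less.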

Other observations

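Low members that were not tested also differed by plate. Uqcrb, a subunit of complex III, had 9.62, 2.54, 47.2 and 9.79 CPM in WT cells and 9.02, 3.20, 54.3 and 2.62 CPM in KO cells. Both sums of 352W lie above the others. Atp5mpl, a small proteolipid of ATP synthase, had 22.4, 0, 132 and 25.5 CPM in WT cells and 40.6, 6.40, 36.2 and 13.1 CPM in KO cells, and here WT cells of 352W were high while KO cells of that plate were not. Symbols with -ps, left out by the choice of members, numbered 7; the most counted were Atp5k-ps2 with 105 UMIs and Ndufab1-ps with 92, against 36 or fewer for each of the others.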
